A study of Mus musculus with 16 samples.

Results

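Myc and the genes of nucleolar ribosome production were followed as a group of 33 genes, chosen by name for these roles. The choice was made with earlier results of these data known. The 33 were Myc, its partner Max, the MAX-binding repressor Mxd4, the MYC target Odc1, and 29 genes for proteins of the nucleolus. All 33 had a probe on the array, and all 33 passed the filter on dim probes, among 20469 genes tested. The files carry older or clone names for 12 of them, such as Nol5a for Nop56, Nol5 for Nop58, Nola1 for Gar1 and BC068171 for Dkc1. The samples were all of follicular B cells, which are the mature cells that circulate through the lymphoid follicles, from mice of the C.B17 strain. Auto.Neg (n = 2) was the anti-thymocyte/Thy-1 autoreactive transgenic ATAμκTg, with heavy chain VH3609μ and light chain Vk21-5κ, in Thy-1 knockout mice, so that the antigen of the receptor is missing. Auto.Pos (n = 2) was the anti-intestinal goblet cell autoreactive transgenic AGcAμκTg, with VH3609μ and Vk19-17κ, and the light chain is spelled Vkappa17-17kappa elsewhere in the labels. WT (n = 2) was wild type. Non-edited (n = 1) and Edited (n = 1) came from VH3609t +/- x Vk21-5Tg +/- mice that were also Thy-1 knockout; editing usually means that a new rearrangement of the genes swaps a chain of the receptor. Auto.Pos differs from the Thy-1 knockout groups in light chain transgene and Thy-1 genotype at once, and from Auto.Neg also in antigen. These differences cannot be told apart. Ages, the promoters of the transgenes and the number of mice behind a sample were not stated in the labels, and nothing states that samples came from separate mice, so the spread behind each p-value may be technical and is that of these samples alone. Every sample went onto a dye-swap pair of arrays against 1 reference, pooled from 6 lines of cultured cells: P388d, DN3, EL4, J558, RS2 and R1.

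MYC is a transcription factor that binds DNA as a dimer with MAX at the E-box, while MXD proteins compete for MAX and repress the same sites. Its best known programme is ribosome production: RNA polymerase I copies the ribosomal RNA genes in the nucleolus, small nucleolar ribonucleoproteins modify the transcript, and separate sets of assembly factors build the small and the large ribosomal subunit. Resting B cells keep MYC and this machinery low, and engagement of the antigen receptor raises both before the cells grow and divide.

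Promoter stretches with the E-box are shown because MYC and MAX bind this motif. Those of Max, Utp20 and Mdn1 were also picked for their levels, with both WT samples above all others on the brightest probe. That order held for 3 of 33 members, against 3.83% of all genes, and the dimmer probes of Utp20 and Mdn1 did not keep it. A choice made on these levels cannot show a link between motif and level. RefSeq windows of GRCm38.p6, from 250 bases before to 50 bases after a gene's start, were matched for 28 of the 33 members, and Myc, Npm1, Fbl, Bop1 and Rrs1 are named without one. The palindrome CACGTG, which reads the same on both strands, was present in 7 of 31 member windows (22.6%), against 7.15% of all 32851 windows. Max, Mxd4, Wdr43, Utp20, Pes1, Nop2 and Mdn1 held it, and the stretches of Wdr43, Pes1 and Nop2 are not printed. Each stretch below has 30 bases and reads 5′ to 3′ along the gene's strand, with the E-box in capitals:
Max, chr12:76962234-76962263, minus strand: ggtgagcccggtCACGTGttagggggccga
Mxd4, chr5:34187912-34187941, minus strand: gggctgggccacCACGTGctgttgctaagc
Utp20, chr10:88826765-88826794, minus strand: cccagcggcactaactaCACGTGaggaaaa
Mdn1, chr4:32657139-32657168, plus strand: caacgtgaattccttcacCACGTGtgtgtc
With the start base counted as 1 and the base before it as -1, the first base of the motif lay at -3 in Max, at -219 in Mxd4, at 38 in Utp20 and at 39 in Mdn1. The related hexamer CACGCG, searched on both strands (CGCGTG on the other), was present in the windows of 9 members, Odc1, Nolc1, Ddx21, Nhp2, Nop10, Bysl, Pes1, Nip7 and Mdn1, which is 29.0% of member windows against 9.27% of all windows. A total of 14 member windows (45.2%) held one or the other, against 15.4% of all windows. A match describes these letters in this window and is not a binding site measured here.

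Every level given here is a log2 ratio of sample over reference, averaged over the 2 arrays of a dye-swap pair, so that 0 is the level of the reference and -1 is 2-fold below it. Between 61.9% and 81.9% of probes per array carried the scanner software's mark for a signal well above background, no spot of a member was saturated, and the 2 arrays of a sample correlated at 0.905 to 0.971 across probes. The number of arrays limits the precision. B cell markers were above the reference in all 8 samples for 11 of 11 genes measured, while 6 of 7 T cell markers were below it in all 8. Markers of other blood cells were also above the reference in all 8 samples: 4 of 6 for macrophages, with a median of 1.82, 4 of 6 for neutrophils, with a median of 2.68, and 3 of 4 for red cell precursors, with a median of 3.86. Slide 2 held Auto.Neg sample 2 and Auto.Pos sample 1, which stood apart from the other 6, as described after the levels.

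Most of the 33 genes were far below the reference. In all 8 samples 28 of 33 lay below it (84.8%, against 28.4% of all genes), and 15 of 33 were at least 2-fold below it in every sample (45.5%, against 11.3%). The median over samples was at least 2-fold below the reference for 24 members, with the lowest ratio for Myc, 8.62-fold below, and the next for Gar1, 8.33-fold below. These are ratios of each gene to its own level in the reference and do not rank transcripts against each other. Mxd4 was the single member above the reference in all 8 samples, 3.09-fold in the median. The reference is RNA of cell lines, and 10 of 10 markers of cycling cells were also below it in all 8 samples, with a median of -4.55; the part of cell division in the level of the 33 genes was not tested. In a bulk sample, fewer cells of a type and less RNA per cell cannot be told apart.

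**Figure D1:**
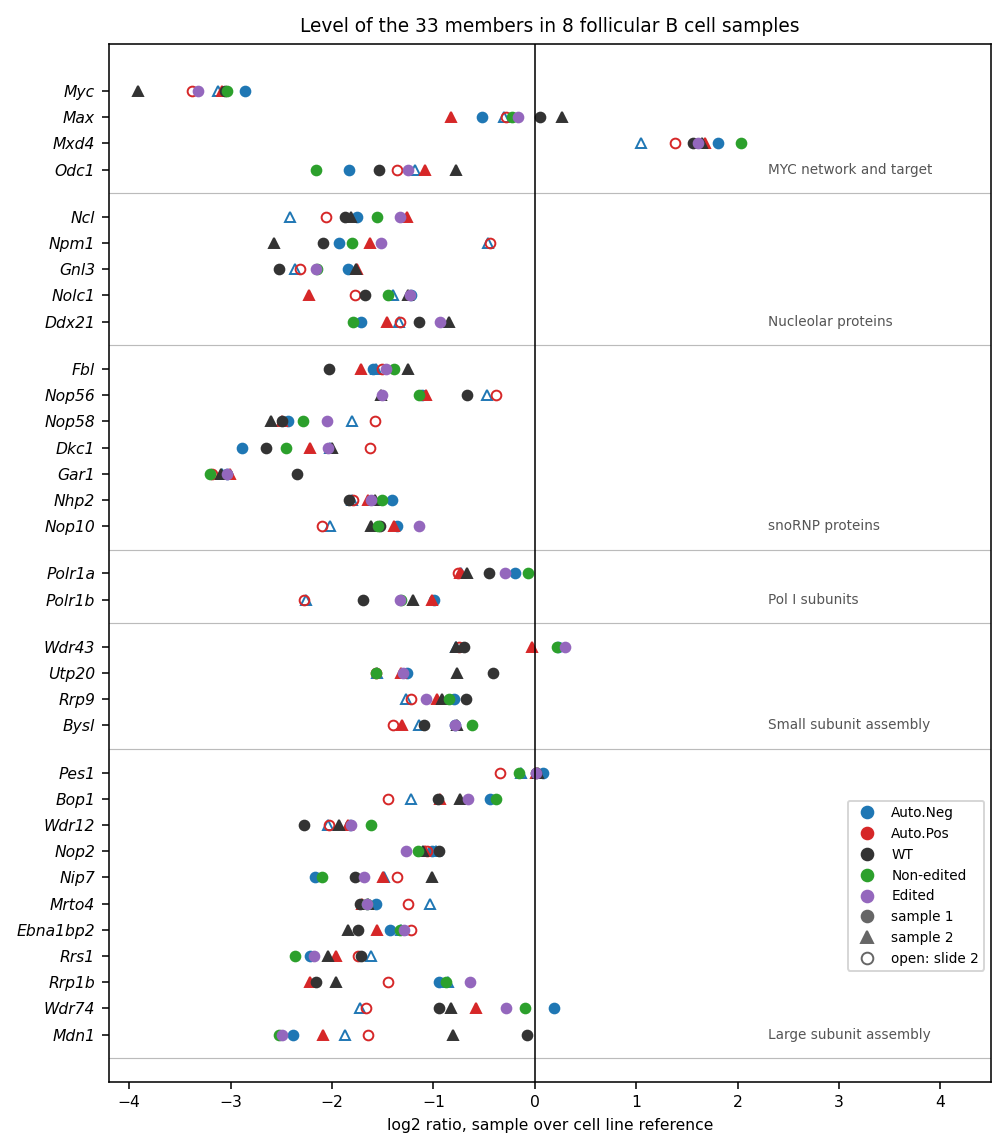
Level of each of the 33 genes (rows, by role) in the 8 samples on the x axis, as log2 ratio over the cell line reference; colours are the groups, circles sample 1, triangles sample 2, and open symbols the samples on slide 2. Apart from Mxd4, Pes1, Max, Wdr43 and Wdr74, all points of a gene lie left of the line at 0.

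Myc itself was read by a probe at chr15:62064256-62064316 in the mm7 build that file headers name. It measured -3.05 and -3.92 in the WT samples, -2.86 and -3.13 in the Auto.Neg samples, -3.38 and -3.09 in the Auto.Pos samples, -3.03 in Non-edited and -3.32 in Edited. WT sample 2 was the lowest and Auto.Neg sample 1 the highest, and the values of the 3 replicated groups overlapped. Max, the obligate partner of MYC, measured 0.06 and 0.27 in the WT samples, -0.52 and -0.30 in the Auto.Neg samples, -0.29 and -0.82 in the Auto.Pos samples, -0.22 in Non-edited and -0.17 in Edited. Both WT samples were above the other 6, and those 6 were all below the reference. The repressor gene Mxd4 measured 1.56 and 1.64 in the WT samples, 1.80 and 1.04 in the Auto.Neg samples, 1.38 and 1.68 in the Auto.Pos samples, 2.04 in Non-edited and 1.61 in Edited. Its lowest 2 values were the samples on slide 2, and the groups overlapped. Odc1, the rate-limiting enzyme of polyamine synthesis, measured -1.54 and -0.78 in the WT samples, -1.83 and -1.18 in the Auto.Neg samples, -1.36 and -1.09 in the Auto.Pos samples, -2.16 in Non-edited and -1.25 in Edited. The groups again overlapped, with Non-edited lowest and WT sample 2 highest.

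The 5 nucleolar proteins were below the reference in all 8 samples. Ncl, nucleolin, one of the most abundant nucleolar proteins, measured -1.87 and -1.82 in the WT samples, -1.75 and -2.42 in the Auto.Neg samples, -2.05 and -1.26 in the Auto.Pos samples, -1.56 in Non-edited and -1.33 in Edited. Its lowest 2 values were those on slide 2. Npm1, nucleophosmin, a chaperone of ribosome assembly, measured -2.08 and -2.58 in the WT samples, -1.93 and -0.46 in the Auto.Neg samples, -0.45 and -1.63 in the Auto.Pos samples, -1.80 in Non-edited and -1.52 in Edited. The slide 2 samples were the highest here, and both WT samples the lowest. Nolc1, a chaperone of small nucleolar ribonucleoproteins, measured -1.68 and -1.25 in the WT samples, -1.22 and -1.40 in the Auto.Neg samples, -1.77 and -2.22 in the Auto.Pos samples, -1.45 in Non-edited and -1.23 in Edited, with both Auto.Pos samples below all others. Ddx21, an RNA helicase of ribosomal RNA synthesis, measured -1.14 and -0.85 in the WT samples, -1.71 and -1.34 in the Auto.Neg samples, -1.33 and -1.45 in the Auto.Pos samples, -1.80 in Non-edited and -0.94 in Edited, so that Edited lay between the WT values. Gnl3, the nucleolar GTPase nucleostemin, ranged from -2.53 to -1.75.

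All 7 proteins of small nucleolar ribonucleoproteins were below the reference in every sample. Fbl, fibrillarin, the methyltransferase of the box C/D particles, measured -2.03 and -1.25 in the WT samples, -1.60 and -1.56 in the Auto.Neg samples, -1.50 and -1.72 in the Auto.Pos samples, -1.39 in Non-edited and -1.47 in Edited. The WT pair held both its lowest and its highest value. The core proteins of the same particles spanned -1.52 to -0.38 (Nop56) and -2.60 to -1.58 (Nop58). Dkc1, dyskerin, the pseudouridine synthase of the box H/ACA particles, measured -2.65 and -1.99 in the WT samples, -2.89 and -2.02 in the Auto.Neg samples, -1.63 and -2.22 in the Auto.Pos samples, -2.46 in Non-edited and -2.04 in Edited. Its partners Gar1, Nhp2 and Nop10 had ratios of -3.20 to -2.35, -1.83 to -1.41 and -2.10 to -1.14, in that order. Nhp2 varied little, with a range of 0.42.

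Polr1a and Polr1b encode the catalytic core of RNA polymerase I, and ranged from -0.76 to -0.06 and from -2.27 to -0.99. For Polr1b the samples on slide 2 (-2.26 and -2.27) stood more than 2-fold below their group partners (-0.99 and -1.01). Of the small subunit factors, Utp20, a large scaffold of the small subunit processome, measured -0.41 and -0.76 in the WT samples, -1.26 and -1.55 in the Auto.Neg samples, -1.57 and -1.32 in the Auto.Pos samples, -1.56 in Non-edited and -1.30 in Edited. Both WT samples were above the other 6. Rrp9, a U3 ribonucleoprotein component, ranged from -1.27 to -0.68, and Bysl, a factor of late small subunit maturation, from -1.40 to -0.62. Wdr43, a processome protein tied to ribosomal RNA transcription, lay on both sides of the reference, from -0.78 to 0.30, and was above it in Auto.Neg sample 1, Non-edited and Edited.

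The large subunit factors included the genes with the widest and the narrowest spread. Mdn1, the giant ATPase that strips factors from the large subunit precursor, measured -0.08 and -0.81 in the WT samples, -2.39 and -1.88 in the Auto.Neg samples, -1.64 and -2.09 in the Auto.Pos samples, -2.52 in Non-edited and -2.49 in Edited. Both WT samples were above the other 6, and its range of 2.44 was the widest of the 33. Rrp1b, which brings protein phosphatase 1 to the nucleolus, measured -2.15 and -1.96 in the WT samples, -0.94 and -0.85 in the Auto.Neg samples, -1.45 and -2.22 in the Auto.Pos samples, -0.88 in Non-edited and -0.64 in Edited. On this probe, the brightest, the 4 samples of Thy-1 knockout mice were all above the other 4. This order held for Rrp1b as 1 of 33 members and for 1.21% of all genes, and the reverse for 0 members and 0.865% of genes. The other Rrp1b probes did not keep the order. The next of them, almost as bright, was lowest in Auto.Neg sample 1 (-2.77) and Non-edited (-2.61). Nip7, a factor of large subunit RNA processing, measured -1.78 and -1.01 in the WT samples, -2.17 and -1.49 in the Auto.Neg samples, -1.35 and -1.49 in the Auto.Pos samples, -2.10 in Non-edited and -1.68 in Edited, with 1 array missing from 1 of the samples. The groups overlapped for Nip7.

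The proteins of the PeBoW complex, which is needed to process the large subunit RNAs, differed in ratio, but so did the probes of each gene. Pes1 ranged from -0.34 to 0.08 on its brightest probe and from -1.18 to -0.40 on the other. Bop1 ranged from -1.45 to -0.38. Wdr12 ranged from -2.28 to -1.61 on its brightest probe, and its other probes had medians of -0.29 and -2.35. Nop2, a methyltransferase of the large subunit RNA, had the narrowest range of all 33, 0.32, from -1.27 to -0.94. Mrto4, a relative of the ribosomal stalk protein P0, ranged from -1.73 to -1.03, the assembly factor Ebna1bp2 from -1.84 to -1.22 and Rrs1, which helps to place the 5S particle, from -2.36 to -1.62. Wdr74 covered -1.72 to 0.19, with its lowest 2 values on slide 2. Over the 33 genes the range across samples had a median of 1.00, and 16 genes varied by less than 1.

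Related genes outside the 33, from lists written from general knowledge, showed where the low levels stopped. Of 48 other MYC target genes 42 were below the reference in all 8 samples (median -1.63), and so were 38 of 62 other small subunit factors (median -0.70) and 30 of 53 other large subunit factors (median -0.51). Other Pol I machinery was nearer to the reference, with 9 of 18 genes below it throughout and a median of -0.39. The partners and rivals in the MYC network had a median of 0.19, with 7 of 20 below in all samples and 6 above. The ribosomal proteins themselves lay on the other side: 3 of 78 were below the reference in all 8 samples and 45 above, with a median of 0.84. All genes had a median of 0.09, and of 20463 genes 5816 (28.4%) were below the reference in all 8 samples and 7061 above.

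**Figure D2:**
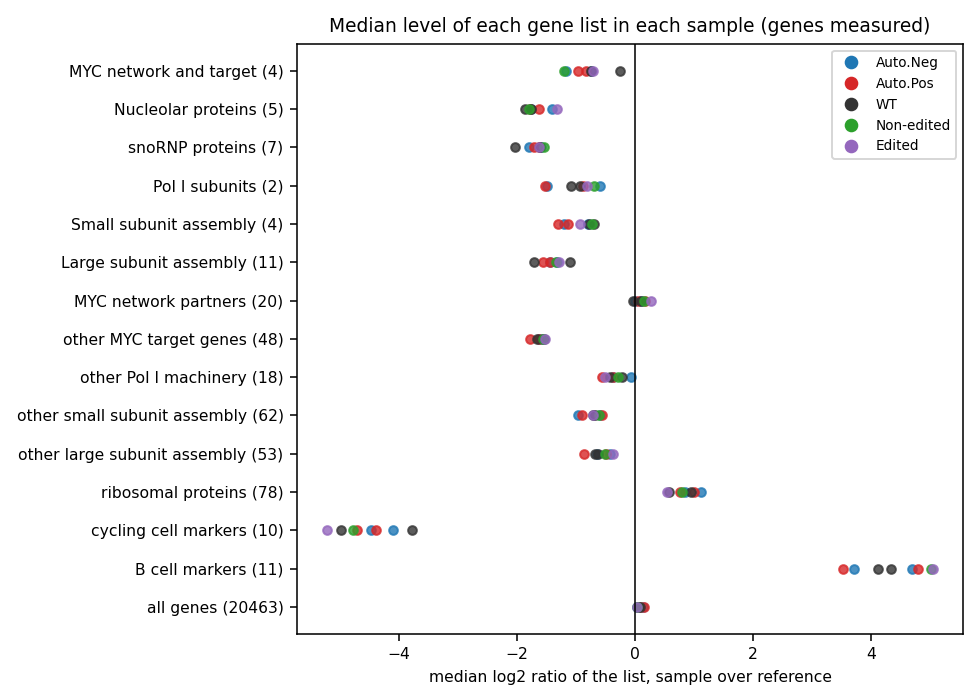
Median log2 ratio over the reference (x axis) of each gene list (rows, with the number of genes measured) in each of the 8 samples, coloured by group. Assembly factors and MYC targets lie left of 0, cycling markers near -4.55, and ribosomal proteins right of 0 at 0.55 to 1.13.

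Before the groups were compared, the 2 samples of slide 2 were set against their group partners. The Auto.Neg sample on slide 2 and the Auto.Pos sample on slide 2 each differed from their partner in the same direction for 31 of 33 members (14 higher on slide 2 and 17 lower), which is 93.9% against 80.3% of all genes; Odc1 and Nolc1 were the exceptions. The shifts correlated at 0.86 over the 33 genes and at 0.79 over all genes, as a description, since the genes share the slide. In the median, a member differed by 0.52 within Auto.Neg and by 0.35 within Auto.Pos, but by 0.10 between the samples of different groups on slide 2. For all genes these medians were 0.37, 0.37 and 0.12. The shift was -1.91 in Auto.Neg and -1.09 in Auto.Pos for Wdr74, 1.48 and 1.18 for Npm1, and -1.27 and -1.26 for Polr1b. The second probe of Npm1, nearly as bright, shifted by 0.02 and -0.33, so that the shift of this gene rests on 1 probe. On the brightest probes, both slide 2 samples were above all 6 others for Npm1, Nop56, Nop58 and Mrto4 (4 members, against 27.6% of all genes). They were below them for Mxd4, Ncl, Nop10, Polr1b, Rrp9, Bop1 and Wdr74 (7 members, against 11.4%). In Auto.Neg and Auto.Pos, the other Ncl probes shifted by -0.84 and -0.71, by -0.01 and -0.48, and by 2.00 and 1.90. Those of Mxd4 shifted by -1.12 and -0.75 and by 0.01 and -0.19. The median of the macrophage markers was 2.54 and 2.81 on slide 2 against 1.20 in Auto.Neg sample 1 and 1.46 in Auto.Pos sample 2. B cell markers had 3.72 and 3.53 on slide 2 against 4.69 and 4.80, and plasma cell markers -2.05 and -2.22 against -0.95 and -0.88. Red cell markers were at 4.43 and 4.19 against 4.02 and 3.49, while neutrophil markers lay lower on slide 2 in Auto.Neg (1.69 against 3.83) and higher in Auto.Pos (3.19 against 1.58). The part of these cell types in the shift was not tested.

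**Figure D3:**
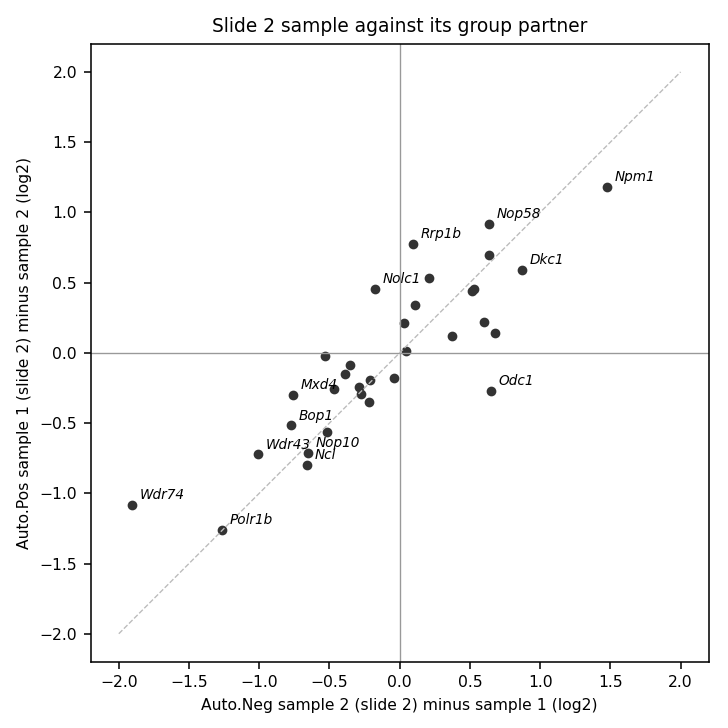
Each point is 1 of the 33 genes: log2 difference of the slide 2 sample from its group partner in Auto.Neg (x axis) and in Auto.Pos (y axis), with the diagonal dashed. Of the 33 points 31 lie in the lower left or upper right field, from Wdr74 at -1.91 and -1.09 to Npm1 at 1.48 and 1.18.

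Auto.Pos against Auto.Neg sets cells of the group labelled autoreactive positive beside cells whose antigen is missing; whether the former had met their antigen was not measured. No member passed the threshold, an adjusted p under 0.05 in limma's test over all genes (0 of 33, against 0.0147% of all genes), and Myc lay at -0.24 (SE 0.35; adjusted p = 1 in limma), with a 95% interval of -1.12 to 0.64. The median difference of the 33 genes was -0.04, with 12 higher and 21 lower in Auto.Pos, against 0.02 over all genes. At an unadjusted p under 0.05 limma had 2 members, Nolc1 and Rrp1b, 6.06% against 1.04% of all genes. Both Auto.Pos samples were below both Auto.Neg samples for 5 members, Nolc1, Polr1a, Bysl, Nop2 and Rrp1b (8.17% of all genes), and above them for 0 members (11.0%).

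Rrp1b differed most between Auto.Pos and Auto.Neg, by -0.94 (SE 0.31; adjusted p = 1 in limma), and the 95% interval ran from -1.72 to -0.16. Within slide 2 its difference was -0.59, and without the slide 2 samples it was -1.28. The 3 other probes kept for Rrp1b differed by 0.10, -0.19 and 0.09, so the size rests on 1 probe and the direction was not shared by all. Nolc1 differed by -0.69 (SE 0.27; adjusted p = 1 in limma), by -0.37 within slide 2 and by -0.06 on its other probe. Dkc1, Ncl and Nip7 completed the 5 largest differences at 0.53, 0.43 and 0.40, with standard errors of 0.42, 0.37 and 0.37, and adjusted p = 1 for each in limma. Within slide 2 these 3 genes differed by 0.39, 0.36 and 0.13. The other probe of Dkc1 gave -0.15 and that of Nip7 -0.16, both dimmer, and the 3 other probes of Ncl gave 0.40, -0.07 and 0.02. None of the 33 genes was 2-fold apart, and for 17 of them the 95% interval lay wholly within 2-fold; for the other 16 a 2-fold difference lies inside the interval.

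**Figure D4:**
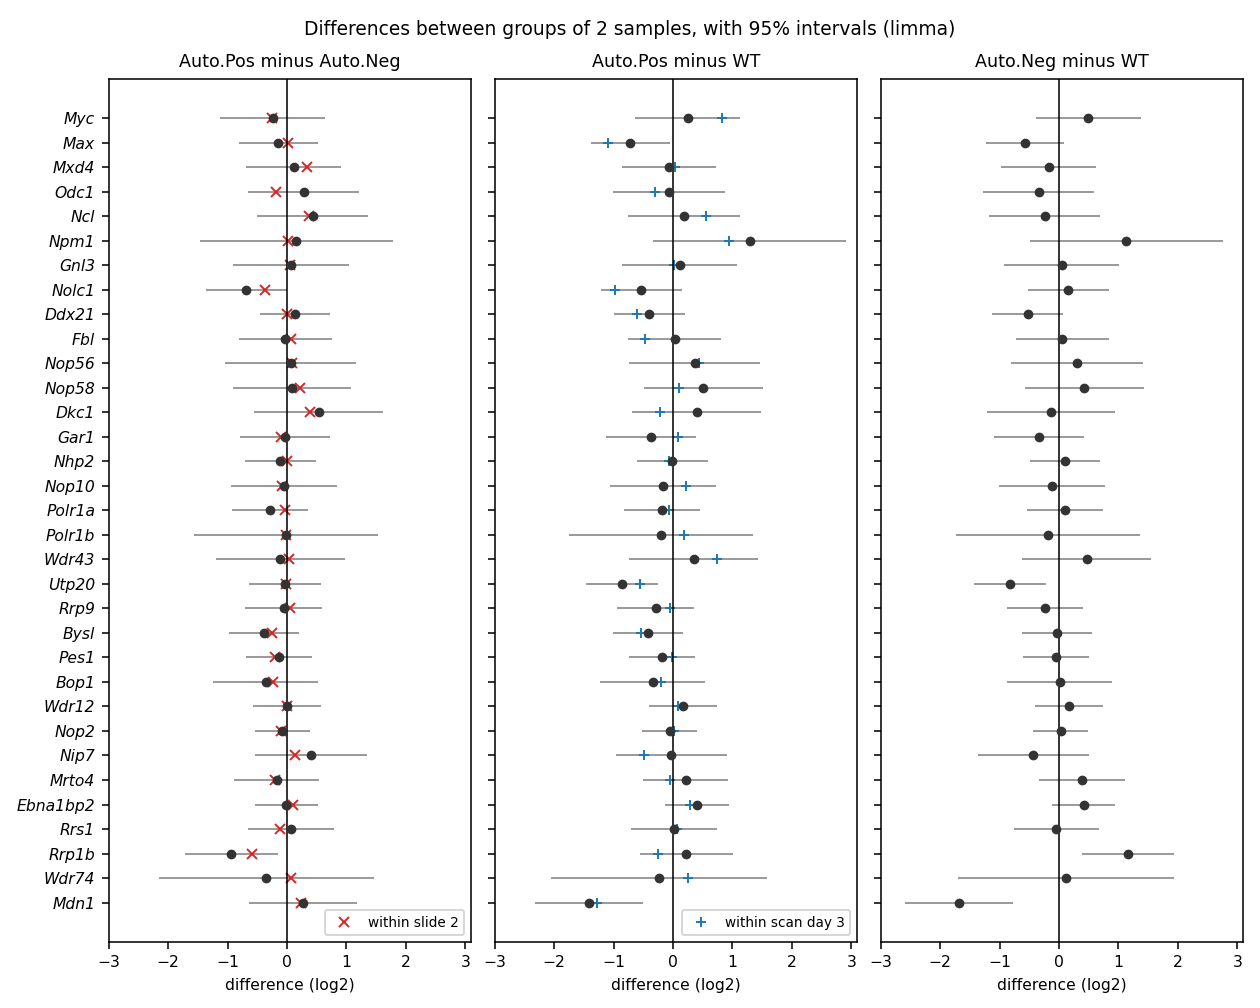
Difference in log2 ratio (x axis) of each of the 33 genes in the 3 comparisons of groups of 2 samples, with limma's 95% intervals as bars; red crosses give the difference within slide 2 and blue plus signs that within scan day 3. The intervals that leave out 0 belong to Nolc1 and Rrp1b (left), to Max, Utp20 and Mdn1 (middle) and to Utp20, Rrp1b and Mdn1 (right), none with an adjusted p under 0.597.

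Auto.Pos against WT compares the goblet cell autoreactive transgenic cells with wild type cells. Again 0 of 33 members passed limma's adjusted threshold, against 0% of all genes, and the lowest adjusted p was 0.597. The members had a median difference of -0.05, with 14 higher and 19 lower, against 0.06 for all genes. At an unadjusted p under 0.05 limma had 3 members, Max, Utp20 and Mdn1 (9.09%, against 5.63% of all genes). Both Auto.Pos samples were below both WT samples for 8 members, Max, Nolc1, Ddx21, Polr1a, Utp20, Rrp9, Bysl and Mdn1 (24.2%, against 10.4% of all genes), and above them for Npm1 and Ebna1bp2 (6.06%, against 19.2%). Myc differed by 0.25 (SE 0.35; adjusted p = 1 in limma), with an interval of -0.63 to 1.13. Its value was 0.83 within scan day 3 and within scanner protocol 9.5, and -0.33 within protocol 9.1, and its 2 other probes gave -0.09 and -0.76.

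Mdn1 differed most between Auto.Pos and WT, by -1.42 (SE 0.36; adjusted p = 0.597 in limma). It was -1.28 within scan day 3, -1.56 within protocol 9.1 and -1.64 without the slide 2 samples, while a dimmer second probe, well above background on 12 of 16 arrays, gave 0.23. Npm1 was higher by 1.29 (SE 0.64; adjusted p = 0.986 in limma), by 0.95 within scan day 3 and by 0.70 without the slide 2 samples, and its second probe gave 1.20. The difference was 2.43 on the Cy3 arrays and 0.16 on the Cy5 arrays, and the 2 arrays of Auto.Pos sample 1 lay 2.33 apart, the widest such gap among the members. Utp20 differed by -0.86 (SE 0.24; adjusted p = 0.654 in limma), with -0.56 within scan day 3 and 0.04 on its second, dimmer probe. Max differed by -0.72 (SE 0.26; adjusted p = 0.834 in limma) and by -1.09 within scan day 3, and has a single probe. Nolc1 followed at -0.54 (SE 0.27; adjusted p = 0.99 in limma), with -0.98 within scan day 3 and -0.46 on its other probe. Ddx21, at -0.40, had 2 other probes at -1.99 and -1.50.

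Auto.Pos sample 2 and WT sample 2 were scanned on the same day, and a fit with scan day as a random block, which estimates a correlation of 0.917 within a day, changed the calls. It called 10 of 33 members between Auto.Pos and WT, against 20.4% of all genes. Higher in Auto.Pos were Myc by 0.74 (adjusted p = 0.0322), Ncl by 0.51, Npm1 by 0.96 and Wdr43 by 0.71. Lower were Max at -1.03 (adjusted p = 0.00868), Nolc1 at -0.88, Ddx21 at -0.58, Utp20 at -0.60, Bysl at -0.50 and Mdn1 at -1.32 (adjusted p = 0.00636), all in limma. The same fit called 0 members between Auto.Pos and Auto.Neg (0.191% of all genes) and 1, Mdn1 at -1.59 (adjusted p = 0.0356 in limma), between Auto.Neg and WT (2.24% of all genes). Scan day 3 is the only day that held samples of both Auto.Pos and WT, 1 of each, and scan day as a fixed block leaves no degrees of freedom. Every call is for the brightest probe alone, and Max has a single probe. The other probes of Npm1, Nolc1, Ddx21 and Bysl had the direction of the call in the group means of Auto.Pos and WT. Those of Myc differed by -0.09 and -0.76, that of Mdn1 by 0.23 and that of Utp20 by 0.04, against the direction of the call. By group means, the other Wdr43 probe differed by -1.77 between Auto.Pos and WT, and the other Ncl probes by 0.16, -0.81 and -0.21.

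Auto.Neg against WT compares transgenic cells without their antigen with wild type cells; it shares the WT samples with the preceding comparison and the Auto.Neg samples with the first. No member passed limma's adjusted threshold (0 of 33, against 0% of all genes), and the lowest adjusted p was 0.617. The median difference was 0.01, with 17 higher and 16 lower, against 0.04 over all genes. Limma's unadjusted p was under 0.05 for 3 members, Utp20, Rrp1b and Mdn1 (9.09%, against 4.60% of all genes). Both Auto.Neg samples were above both WT samples for Npm1, Nop58, Mrto4, Ebna1bp2 and Rrp1b (5 members, against 15.4% of all genes) and below them for Max, Ddx21, Utp20 and Mdn1 (4 members, against 9.57%). Myc differed by 0.49 (SE 0.35; adjusted p = 1 in limma), within an interval of -0.39 to 1.37, by 1.06 within protocol 9.5 and by -0.08 within protocol 9.1.

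Mdn1 again differed most, by -1.69 (SE 0.36; adjusted p = 0.617 in limma), with -1.79 within protocol 9.1, -1.58 within protocol 9.5 and -0.32 on its second probe. Rrp1b was higher in Auto.Neg by 1.16 (SE 0.31; adjusted p = 0.828 in limma), and by 1.30 and 1.02 within the protocols, while its 3 other probes gave -0.18, -0.26 and 0.18. For Npm1 the difference was 1.13 (SE 0.64; adjusted p = 1 in limma), with 1.94 on the Cy3 and 0.32 on the Cy5 arrays, and 0.82 on its second probe. Utp20 differed by -0.82 (SE 0.24; adjusted p = 0.918 in limma) and Max by -0.57 (SE 0.26; adjusted p = 1 in limma). Without the slide 2 samples Npm1 was at 0.40, Utp20 at -0.67, Max at -0.68, Mdn1 at -1.94 and Rrp1b at 1.12. No slide and no scan day held samples of both Auto.Neg and WT, so that these batches and the groups cannot be told apart.

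Over all 8 samples, both WT samples were above the other 6 for Max, Utp20 and Mdn1 (3 of 33, against 3.83% of all genes) and below them for Npm1 and Ebna1bp2 (2 of 33, against 5.82%). The first 3 genes are also among the 7 with an E-box in the promoter window, an overlap seen only after both lists were known and not tested. Macrophage markers did not split the samples in this way: their medians were 2.68 and 2.66 in the WT samples, 2.81 and 2.54 in the slide 2 samples of Auto.Pos and Auto.Neg, 1.46 and 1.20 in the other samples of these groups, 0.75 in Non-edited and 0.83 in Edited.

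**Figure D5:**
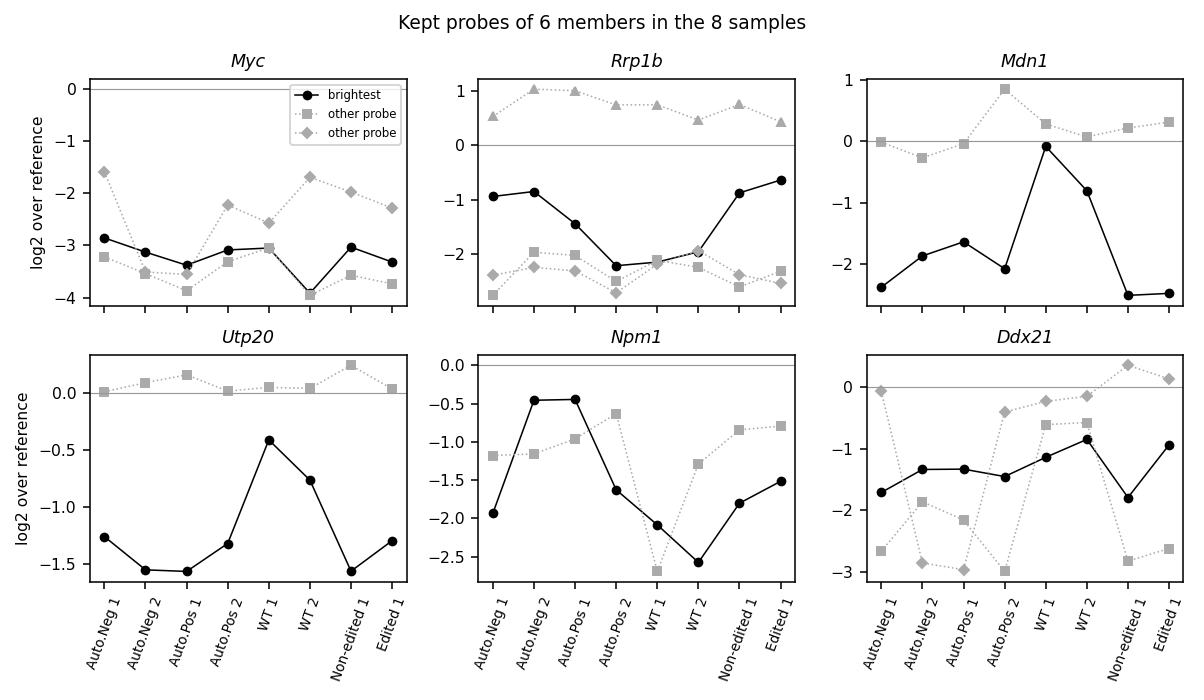
Levels (y axis, log2 ratio over the reference) of every kept probe of 6 genes in the 8 samples (x axis); the black line is the brightest probe, used in the text, and grey lines are the other probes, with lines only to guide the eye. The brightest probes of Mdn1 (-0.08 and -0.81) and Utp20 (-0.41 and -0.76) are highest in the WT samples, and their dimmer probes are not.

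Probes for the same gene often differed. Of the 33 genes 19 had more than 1 kept probe, 29 further probes in all, of which 22 were below the reference in the median. In 12 genes the probe medians lay more than 1 apart, and in 6 they differed in sign. The further probes shared the sign of the brightest one for 14 of 29 between Auto.Pos and Auto.Neg, for 11 of 29 between Auto.Pos and WT, for 16 of 29 between Auto.Neg and WT and for 22 of 29 between Edited and Non-edited. Myc kept its sign on all 3 probes between Auto.Pos and Auto.Neg, at -0.24, -0.21 and -0.34, but not between Auto.Neg and WT, at 0.49, 0.12 and -0.42. Its main probe is printed 10 times on each array, with a standard deviation of 0.021 to 0.112 among those spots on an array, and the 2 arrays of a sample lay 0.14 to 0.63 apart.

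Edited against Non-edited rests on 1 sample each, with no replicate check and no p-value. Odc1 was 1.88-fold higher in Edited, -1.25 against -2.16, a difference of 0.91 that was 1.08 on the Cy5 arrays and 0.75 on the Cy3 arrays. Its 2 other probes gave 0.69 and 0.77. Ddx21 was 1.81-fold higher, -0.94 against -1.80, at 1.17 and 0.54 on the dye orientations, but its other probes gave 0.20 and -0.22. Mxd4 followed at -0.43, then Nip7 at 0.42 and Dkc1 at 0.42. Nip7 lacks the Cy5 array of Non-edited. On the Cy3 arrays alone it differed by 0.20, and its other, dimmer probe gave 0.38. Myc was 1.22-fold lower in Edited, -3.32 against -3.03, and its 2 other probes gave -0.17 and -0.31. In all, 18 of 33 were higher and 15 lower with a median of 0.04. On both arrays of the pair, 0 members were 2-fold or more apart (against 1.39% of all genes). Odc1 alone passed 1.5-fold in both (1 of 33, against 978 of 20469 genes).

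None of the related lists held a gene past limma's adjusted threshold in any of the 3 comparisons of replicated groups. At an unadjusted p under 0.05 limma had 1, 3 and 3 of the 48 other MYC targets (Auto.Pos against Auto.Neg, Auto.Pos against WT, Auto.Neg against WT), 0, 1 and 1 of the 62 small subunit factors, 0, 2 and 4 of the 53 large subunit factors and 0, 1 and 3 of the 78 ribosomal proteins. The 20 MYC network partners and the 18 genes of Pol I machinery had 0 in each. Of all genes, 1.04%, 5.63% and 4.60% had such a p in limma in the 3 comparisons. Among the targets, Ccnd2, cyclin D2, measured 0.08 and 0.19 in WT against -0.77 and -1.55 in Auto.Pos and -0.54 and -0.99 in Auto.Neg. Its difference between Auto.Pos and WT was -1.30 (SE 0.33; adjusted p = 0.604 in limma), so the groups did not overlap but the call was not made. Pa2g4, a growth regulator of the nucleolus, differed by -1.12 between Auto.Pos and Auto.Neg (SE 0.41; adjusted p = 1 in limma). Rsl1d1, a nucleolar protein of the large subunit list, differed by -1.15 between Auto.Neg and WT (SE 0.37; adjusted p = 0.983 in limma), and the ribosomal protein gene Rpl23 by 0.95 between Auto.Pos and WT (SE 0.25; adjusted p = 0.624 in limma). Ribosomal proteins had median differences of -0.08, 0.11 and 0.16 in the 3 comparisons, where all genes had 0.02, 0.06 and 0.04.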

How the data were processed

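The authors deposited a scanner file per array, with raw spot and local background intensity per channel, and a log10 ratio of red over green, written by Feature Extraction 9.1.1.1, 9.1.3.1 or 9.5.1.1 per the file headers. The authors also deposited log2 ratios of all arrays for the whole series, whose scale, centring and direction are not stated; its columns were set against the scanner files, where 6 of 16 matched their own array best, and it has 0 columns of no sample. RNA was amplified from 100 ng and carried Cy3 or Cy5, per the labels' protocols, and the submitters' processing notes name limma.

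Files were read with data.table (version 1.17.8) in R 4.3.3. With limma 3.58.1, mean intensity was corrected by normexp (offset 50), loess was applied within each array (weight 0 for control spots), and outlier-flagged spots were dropped. The reference was made the denominator on every array before dye-swap partners were averaged. Probes had to be well above background in the sample channel on both arrays of at least 2 samples, which left 29640 of 41174 probes. All 41174 had been named beforehand by accession (22951), file name (8455), symbol (6659) or synonym (3109). The brightest kept probe stood for a gene. limma was fitted to all 8 samples with 1 mean per group (3 residual and 2.11 prior degrees of freedom), p-values were adjusted over all 20469 genes (Benjamini-Hochberg), and the call threshold was an adjusted p of 0.05; 6 genes lacked a sample. The script was tested on simulated data. Slide, scan day and scanner protocol come from the file headers. Replicate numbers were not used as pairs in the main fit. Deviations of same-numbered samples correlated at -0.788 (Auto.Neg and Auto.Pos), -0.279 (Auto.Neg and WT) and 0.252 (Auto.Pos and WT). Slide 2 held Auto.Neg sample 2 and Auto.Pos sample 1, so the first value cannot tell pairing from slide.

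All 33 genes are reported; Myc, Max, Mxd4, Odc1, Ncl, Npm1, Fbl and the 5 with the largest difference in each comparison are given in every sample, and of the related lists only genes among the 2 largest differences of a list. Ddx21 is given in full after its values were seen. The members and lists were chosen with earlier results of these data known. Alternatives covered background correction, normalization, filter, probe choice, blocks, left-out samples and the series table. Marker genes Ighd, Gcet2, Trac and Hbb-b1 matched no probe name, and Mybl1, Ncr1, Itgam and Elane did not pass the filter.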

Additional observations from a re-analysis of the deposited data

How the results depend on the processing

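The count of members called stayed at 0 in all 3 comparisons under every alternative run other than scan day as a random block and the series table as labelled. Scan day as a random block called 10 between Auto.Pos and WT and 1 between Auto.Neg and WT. The series table as labelled called 26 between Auto.Pos and Auto.Neg and 23 between Auto.Neg and WT, with medians of -1.56 and 1.46, and it turned the sign of 12 and 14 members, among them Odc1 (-1.35), Ncl (-1.62), Npm1 (-2.12), Dkc1 (-2.81) and Nip7 (-1.63) in the first and Odc1 (1.36), Ncl (1.84), Dkc1 (3.02) and Gar1 (3.18) in the second. Without a call, Mdn1 and Utp20 turned to 2.02 and 1.03 between Auto.Neg and WT and to 0.75 and 0.14 between Auto.Pos and WT, where 15 members turned. Of its 16 columns, 10 match another array than the labelled one and 2 have the opposite sign. The 10 are those labelled Auto.Neg, Auto.Pos sample 1 and WT. The 2 are both labelled Auto.Neg, where columns of opposite sign were averaged in each sample. The scanner files were followed here, and which attribution is right was not settled. With columns rematched, chosen after seeing the data, 0 members were called and the lowest adjusted p in limma was 0.343. Scale normalization between arrays moved the median of the members to 0.31 between Auto.Pos and WT and to 0.24 between Auto.Neg and WT. It also took Myc from -0.24 to 0.01 between Auto.Pos and Auto.Neg, from 0.25 to 1.24 between Auto.Pos and WT and from 0.49 to 1.23 between Auto.Neg and WT. Leaving out each of the 6 replicated samples in turn called 0 members each time. Without Auto.Neg sample 1 the sign turned for 15 of 33 members between Auto.Pos and Auto.Neg, of which 1 was among the 8 whose difference exceeded its standard error. Between Edited and Non-edited, Odc1 alone passed 1.5-fold (978 of 20469 genes with the main processing). Exceptions were median centring with 0 members (532 genes) and scale normalization with 2, Odc1 and Ddx21 (1063 genes). The scanner log ratio had 3, Odc1, Ddx21 and Dkc1 (2236 genes). The fit with the replicate block called 0 members in each comparison. Slide as a random block was not run, since limma gave no correlation for 7 slides over 8 samples; slide 2 as a fixed block and the fit without its samples, both chosen after seeing the data, called 0. The 2 samples per group limit what can be called: the 95% intervals reached 0.46 to 1.81 to either side, with a median of 0.78.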
